A study of Rattus norvegicus with 8 samples.

Results

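Ahr and Cyp2s1 were followed as a pair, a receptor gene and a cytochrome P450 gene that the receptor can induce, across all 8 libraries of a study of nerve injury in male and female rats. They were picked by name, as the Ensembl identifiers ENSRNOG00000004342 (Ahr) and ENSRNOG00000020743 (Cyp2s1), and are 2 of the 32623 genes in the count table and 2 of the 16988 that passed the filter on low counts. They were picked with their values in these libraries known, so their levels and differences are given as a description and no test is given for either gene.

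All rats were adult Sprague-Dawley animals with intact gonads, and the 4 groups were naïve and CCI males and naïve and CCI females, with 2 rats in each. In chronic constriction injury (CCI), a model of neuropathic pain, loose ligatures are tied around the sciatic nerve, and dorsal root ganglia (DRGs), which hold the cell bodies of sensory neurons, were taken 14 days later from L4-L6 on the injured side and pooled for each rat. The naïve rats had no operation, so the effects of the incision and of the nerve injury cannot be told apart. Age in weeks and stage of the estrous cycle are not given by the labels, and sequencing in 2 batches is stated without a list of which library was in which, so a batch could not be set against the groups.

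The aryl hydrocarbon receptor encoded by Ahr is a transcription factor of the bHLH-PAS family that rests in the cytoplasm with chaperones until it binds a ligand, such as dioxin, a dietary indole or a breakdown product of tryptophan. It then enters the nucleus, pairs with ARNT and binds xenobiotic response elements near its target genes, which include P450 enzymes, an aldehyde dehydrogenase and its own repressor. CYP2S1 is a P450 enzyme best known from epithelial tissues, is induced by dioxin through this receptor, and has been described as acting on retinoic acid and on prostaglandin endoperoxides.

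The 250 bases before the annotated start of each gene are shown because this is where a receptor element close to the gene would lie. Both come from RefSeq on the minus strand of GRCr8, a later build than the rn6 of the counts, at chr6:57998902-57999151 for Ahr and at chr1:90453074-90453323 for Cyp2s1. Capitals mark the GC box, GGGCGG on either strand, the sequence that SP1 family factors bind.
Ahr: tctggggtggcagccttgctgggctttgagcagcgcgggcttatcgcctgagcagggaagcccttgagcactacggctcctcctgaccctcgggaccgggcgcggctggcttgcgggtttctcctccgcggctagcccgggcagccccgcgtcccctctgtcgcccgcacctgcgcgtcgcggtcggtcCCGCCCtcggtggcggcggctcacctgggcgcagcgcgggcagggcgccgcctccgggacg
Cyp2s1: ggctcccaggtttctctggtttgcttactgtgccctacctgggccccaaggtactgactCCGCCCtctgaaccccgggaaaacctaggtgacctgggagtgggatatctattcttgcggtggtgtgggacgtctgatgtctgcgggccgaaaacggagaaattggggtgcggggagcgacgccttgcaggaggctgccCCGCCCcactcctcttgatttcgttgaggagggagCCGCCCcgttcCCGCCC

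The Ahr window held 1 GC box, whose first base lay 61 bases before the start, and the Cyp2s1 window held 4, at 191, 52, 17 and 6 bases before it. Among 33469 windows of the same length, 30.5% held at least 1 GC box and 3.67% held 4 or more. GC content was 75.2% for Ahr, above 96.7% of all windows, and 62.4% for Cyp2s1, above 79.8% of them, against a median of 51.2%. The core of the xenobiotic response element, GCGTG on either strand, was in 25.9% of windows and in neither of these. The AP-1 motif TGANTCA was in 6.34% of windows and also in neither. These letters describe this stretch only, and elements farther away were not searched.

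Total counts ran from 39489103 to 60818457 per library, and Ahr was well covered in each. Levels are given as counts and as CPM, normalised read counts that TMM factors put on a common library size, and the error of a group is the SD over its 2 rats. Naïve males had 2544 and 2693 counts of Ahr, or 48.6 and 49.4 CPM, with a mean of 49.0 ± 0.532 CPM (SD, n = 2). CCI males had 2943 and 2255 counts, or 50.4 and 46.5 CPM, with a mean of 48.5 ± 2.75 CPM (SD, n = 2). The CCI males lay on both sides of the naïve males, so these groups overlapped.

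Naïve females had 1526 and 1531 counts of Ahr, or 32.3 and 36.2 CPM, with a mean of 34.2 ± 2.78 CPM (SD, n = 2). CCI females had 2026 and 1939 counts, or 52.4 and 49.6 CPM, with a mean of 51.0 ± 1.94 CPM (SD, n = 2). Both naïve females lay below the other 6 libraries, a position that 1055 of the genes tested (6.21%) shared. Counting error was at most 2.56% of a library's Ahr value. The SD between rats was 1.09% of the mean in naïve males and 5.68% in CCI males. It was 8.13% in naïve females and 3.81% in CCI females. With 2 rats a group these SD are themselves uncertain, and whether they exceed counting error was not tested.

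Cyp2s1 took a different course in the sexes. Naïve males had 950 and 779 counts of Cyp2s1, or 18.2 and 14.3 CPM, with a mean of 16.2 ± 2.74 CPM (SD, n = 2). CCI males had 567 and 422 counts, or 9.71 and 8.71 CPM, with a mean of 9.21 ± 0.712 CPM (SD, n = 2). Both CCI males lay below both naïve males.

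Naïve females had 470 and 421 counts of Cyp2s1, or 9.93 and 9.95 CPM, with a mean of 9.94 ± 0.0126 CPM (SD, n = 2). CCI females had 874 and 725 counts, or 22.6 and 18.5 CPM, with a mean of 20.6 ± 2.85 CPM (SD, n = 2). Both CCI females lay above both naïve females, and the CCI groups of the sexes lay at opposite ends of the range. Groups without overlap in these directions, lower after CCI in males and higher in females, were found for 581 of the genes tested (3.42%), Cyp2s1 among them, and groups without overlap in the reverse directions for 610 (3.59%). Counting error was at most 4.87% of a library's Cyp2s1 value. The SD of 0.0126 CPM in naïve females is smaller than counting alone gives and is no measure of how far females vary.

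**Figure D1:**
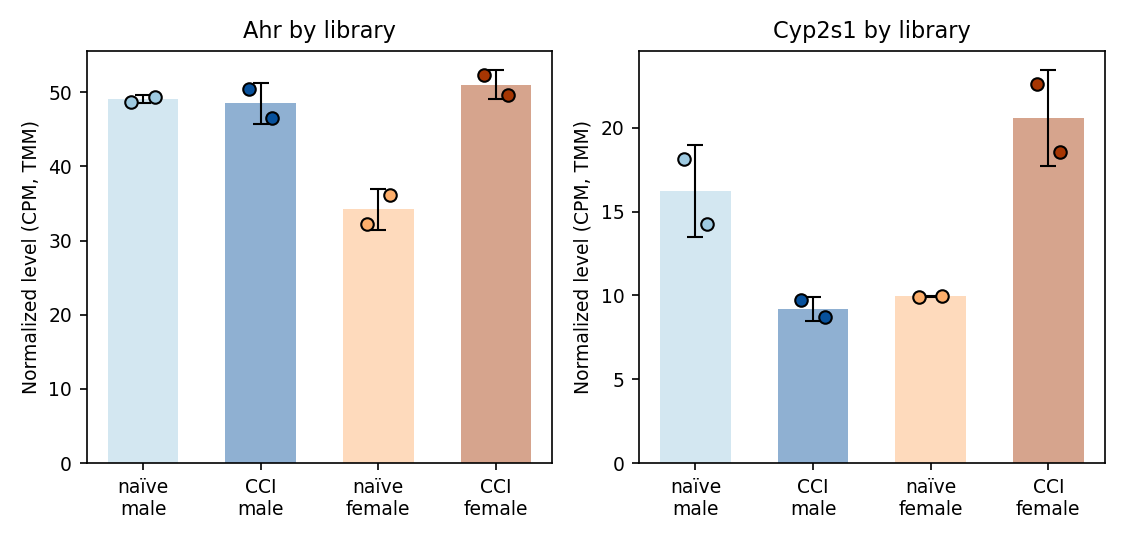
Normalized level (CPM after TMM scaling, both axes from 0) of Ahr on the left and Cyp2s1 on the right in the 8 libraries, with bars for the group mean, error bars for the SD and points for single rats (n = 2 per group). The naïve females sit lowest for Ahr at 34.2 CPM on average, and the CCI males and naïve females sit lowest for Cyp2s1 at 9.21 and 9.94 CPM.

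In order of level, Ahr was highest in CCI females, then naïve males, CCI males and naïve females. The steps from each of the first 3 groups to the next, 1.97 and 0.538 CPM, were within the spread of the rats, since the nearest rats lay 0.218 CPM apart in one case and the groups overlapped in the other. The step of 14.2 CPM down to naïve females left 10.3 CPM between the nearest rats, more than the SD of any group. The order for Cyp2s1 was CCI females, naïve males, naïve females and CCI males. At the top step of 4.34 CPM the nearest rats lay 0.386 CPM apart and at the bottom step of 0.733 CPM they lay 0.221 CPM apart, in both cases less than the SD of at least 1 of the groups. The step of 6.28 CPM between naïve males and naïve females left 4.33 CPM between the nearest rats, more than either SD.

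The log2 fold changes (log2FC) of Ahr from edgeR's fit over all genes put these differences beside their standard errors. After CCI, Ahr differed by a log2FC of -0.01 (SE 0.0714) in males and of 0.57 (SE 0.0944) in females, the latter a level 1.48 times that of naïve females. Of all genes tested, 7.41% had a log2FC at least as high in females, and 30.5% were higher without overlap of the groups. Between naïve females and naïve males the log2FC of Ahr was -0.52 (SE 0.0862), and 12.7% of genes had one as low or lower. Ahr and Cyp2s1 were both lower in naïve females without overlap of the naïve sexes, as were 30.5% of genes. Between the sexes after CCI it was 0.08 (SE 0.0735). The difference of the CCI effect between females and males, the interaction of sex and CCI, was 0.59 (SE 0.114), and 13.5% of genes had one as high or higher.

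Larger values were found for Cyp2s1. After CCI its log2FC was -0.81 (SE 0.138) in males, 0.570 times the naïve level, and 11.0% of genes had one as low or lower, while 36.6% of genes were lower without overlap. In females the log2FC of Cyp2s1 was 1.04 (SE 0.128), 2.06 times the naïve level, with 2.70% of genes as high or higher. Between naïve females and naïve males it was -0.70 (SE 0.143), and 8.21% of genes had one as low or lower. Between CCI females and CCI males it was 1.16 (SE 0.125), 2.24 times the level in males, with 1.68% of genes as high or higher and 24.7% higher without overlap. The interaction of sex and CCI for Cyp2s1 was 1.86 (SE 0.206), and 1.48% of genes had one as high or higher. The comparisons of the sexes and of CCI use the same libraries, so these values are not independent of each other.

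**Figure D2:**
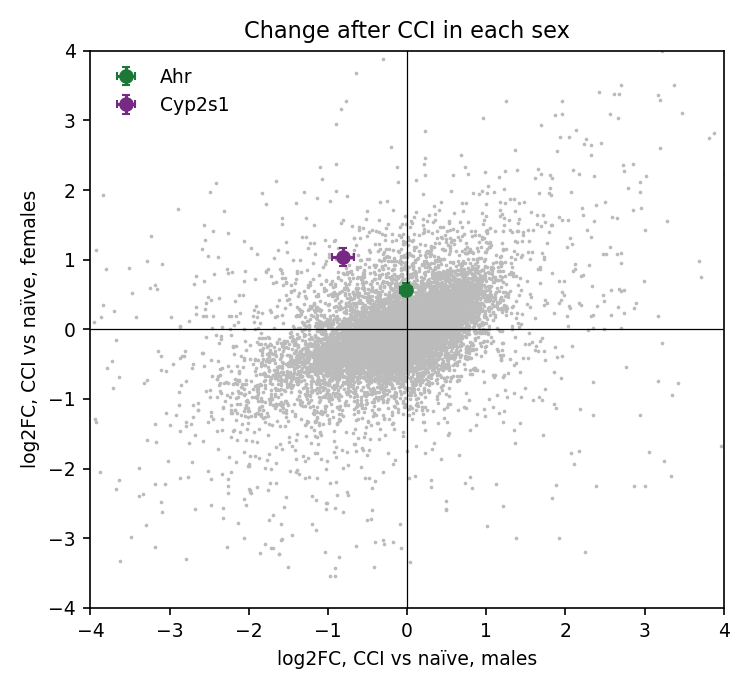
Log2 fold change after CCI in males (horizontal axis) and in females (vertical axis) for all genes tested in grey, except 62 beyond 4 on either axis, with Ahr and Cyp2s1 coloured and bars for their standard errors. Ahr sits at -0.01 and 0.57, and Cyp2s1 sits in the upper left at -0.81 and 1.04.

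The ratio of the 2 genes within a library does not depend on the scaling of libraries. It is not corrected for transcript length, so it can be compared between libraries but does not give the abundance of one gene against the other. For each 100 reads of Ahr there were 37.3 (95% exact binomial interval 34.6 to 40.2) and 28.9 (26.7 to 31.3) reads of Cyp2s1 in naïve males, and 19.3 (17.6 to 21.1) and 18.7 (16.8 to 20.8) in CCI males. In naïve females there were 30.8 (27.7 to 34.2) and 27.5 (24.6 to 30.7), and in CCI females 43.1 (39.8 to 46.7) and 37.4 (34.3 to 40.7). These intervals cover counting error only. Both CCI males had the lowest ratios of the 8 libraries and both CCI females the highest, while naïve males and naïve females overlapped. The first naïve male and the second CCI female differed by less than their counting intervals.

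**Figure D3:**
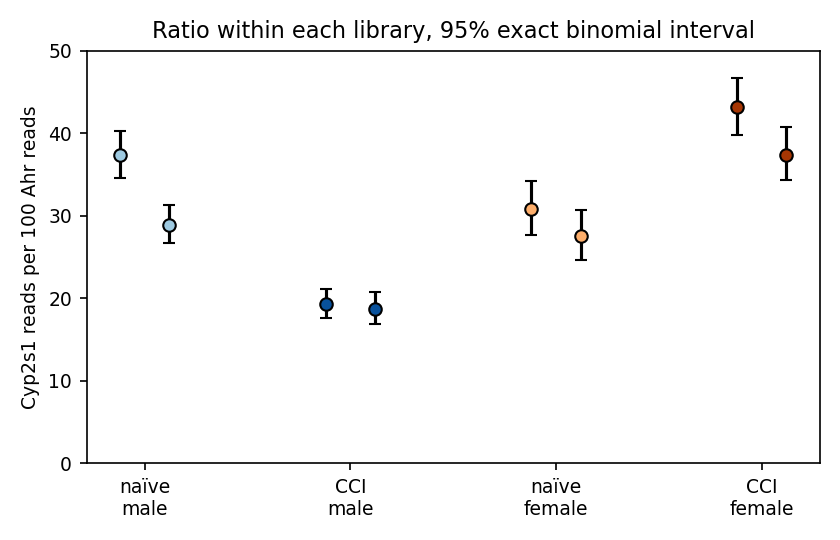
Cyp2s1 reads per 100 Ahr reads in each library (axis from 0), with bars for the 95% exact binomial interval, which covers counting error only. The CCI males lie at 19.3 and 18.7 and the CCI females at 43.1 and 37.4, with the naïve libraries of both sexes between 27.5 and 37.3.

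Over the 8 libraries the log2 CPM of Ahr and Cyp2s1 had a Pearson's r of 0.559 and a Spearman's rho of 0.5. Of the 13082 genes whose log2 CPM averaged 1 or more, 1430 had a higher r with Ahr than Cyp2s1 had, and 912 had a higher r with Cyp2s1 than Ahr had. The 8 libraries fall into 4 groups of 2 and were scaled together, so these values describe group patterns and stand without a p.

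Names were at hand for 1961 identifiers, the genes in the study's own tables, which were drawn up from these libraries. Among them the 5 with the highest r with Ahr were Fam214a (r 0.947), Prc1 (0.944), Sparcl1 (0.943), Socs3 (0.940) and Nqo2 (0.919). All 5 were lowest in naïve females. Sparcl1, a secreted matrix-associated protein, averaged 226 CPM in naïve and 225 in CCI males, and 130 in naïve and 234 in CCI females. Socs3, a feedback inhibitor of cytokine signalling, averaged 5.40, 5.47, 2.94 and 7.23 CPM in the same order. Its rank order was also the closest to that of Ahr, with a rho of 0.929, against 0.333 for Sparcl1. Nqo2, a quinone reductase, averaged 26.7, 33.0, 18.0 and 31.2 CPM.

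The 5 named genes with the highest r with Cyp2s1 were Iqgap1 (r 0.970), Adamts4 (0.960), Tle3 (0.946), Mvp (0.935) and Frmd3 (0.929). Adamts4, an aggrecan-cleaving protease, averaged 21.2 CPM in naïve and 12.5 in CCI males, and 14.8 in naïve and 22.6 in CCI females. Tle3, a transcriptional corepressor, averaged 54.6, 41.4, 45.8 and 55.9 CPM in the same order, with a rho of 0.952. Iqgap1, a scaffold of the actin skeleton, averaged 126, 109, 108 and 129 CPM. On average all 5 were higher in naïve males and CCI females than in the other groups, and on the log2 scale the group means of Cyp2s1 lay farther apart than those of any of the 5.

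**Figure D4:**
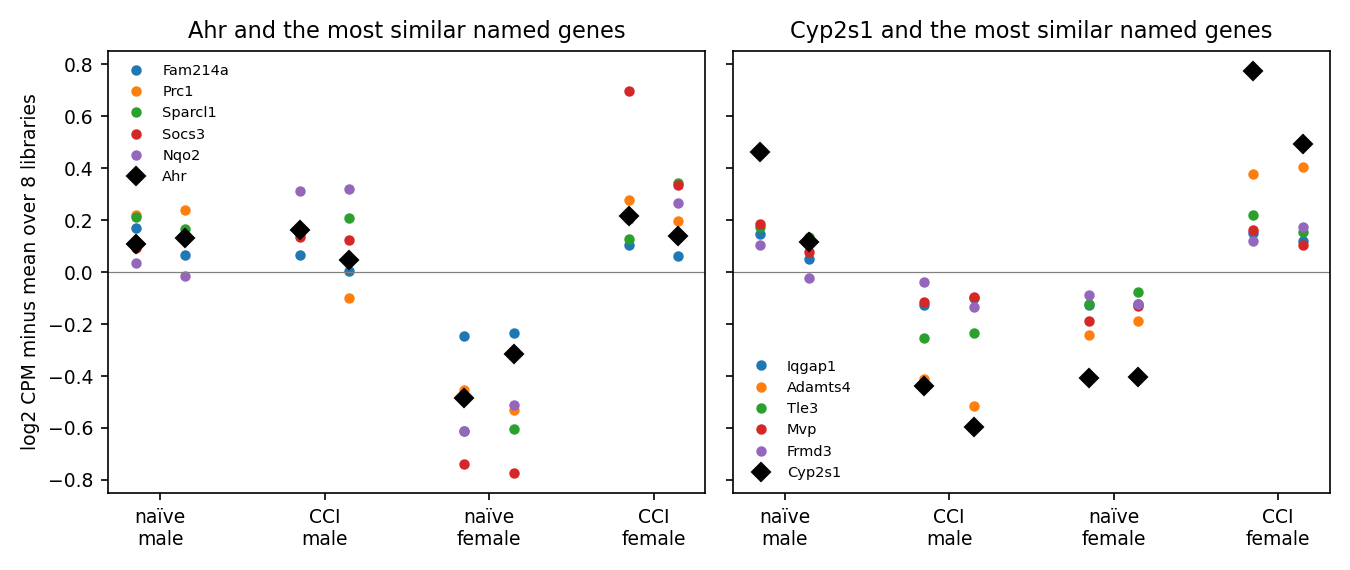
Log2 CPM minus the mean over 8 libraries for Ahr (left, black diamonds) and Cyp2s1 (right, black diamonds) with the 5 named genes of highest Pearson's r to each, 1 point per library. The Ahr set drops in naïve females, and the Cyp2s1 set drops in CCI males and naïve females.

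Of a list of 26 other genes of the receptor's pathway (partners and chaperones, repressors, induced targets and enzymes of tryptophan breakdown), 1 had an identifier here, the target Aldh3a1, an aldehyde dehydrogenase that the receptor induces. Arnt, Ahrr, Tiparp, Cyp1a1, Cyp1b1 and Nqo1 were not analysed here. Aldh3a1 was scarce, with 41 and 33 counts in naïve and 28 and 30 in CCI males, and 68 and 81 in naïve and 37 and 38 in CCI females. These counts correspond to 0.784 and 0.605, 0.480 and 0.619, 1.44 and 1.91, and 0.956 and 0.972 CPM. Aldh3a1 was thus highest in naïve females, the group where Ahr was lowest.

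Aldh3a1 passed no test fitted on the libraries of its own comparison, where a call needed p under 0.05 in edgeR's quasi-likelihood test after adjustment by Benjamini-Hochberg over all genes and, between groups, a log2FC beyond 0.5 in either direction. Its log2FC in edgeR's fits was -0.33 (SE 0.325, adjusted p = 0.466) after CCI in males, where 21.6% of genes were called, and -0.80 (SE 0.308, adjusted p = 0.136) after CCI in females, where 5.69% were. Between naïve females and naïve males it was 1.27 (SE 0.314, adjusted p = 0.114 by edgeR's test), where 0.0706% of genes were called. With all 8 libraries in one edgeR fit this last value was 1.27 with an adjusted p of 0.0415. Between the CCI groups it was 0.82 (SE 0.316, adjusted p = 0.253 in edgeR's fit), where 1.06% of genes were called, and the interaction was -0.46 (SE 0.427, adjusted p = 0.547), where 1.59% were. Leaving out 1 library moved the male value to between -0.14 without the first naïve male and -0.53 without the second CCI male, and the interaction to between -0.24 without the second naïve female and -0.65 without the first naïve male. DESeq2 called it in none of the comparisons between groups either, and for the interaction no adjusted p of Aldh3a1 from DESeq2 is given here. Unadjusted, edgeR's p was 0.0322 in females, 0.00953 between the naïve sexes and 0.0418 between the CCI groups.

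Other members of the PAS family were better represented. Of 15 relatives of Ahr and of the proteins it pairs with, 4 had identifiers, all of them parts of the circadian clock. In males after CCI 3 of the 4 were called lower, where 12.5% of all genes were, with a median log2FC of -0.92 against -0.01 over all genes. In females 1 of the 4 was called higher, where 3.69% of all genes were, with a median of -0.27 against -0.02. Between the CCI groups 2 of 4 were called higher in females, where 0.524% of genes were. Between naïve females and males the lowest was Per3, at a log2FC of -1.30 (SE 0.103, adjusted p = 0.0657 by edgeR's test), which did not pass. The study chose these genes for its tables on the same libraries, so the counts are no independent evidence of a direction. The hour at which tissue was taken is not given by the labels.

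Arntl, which encodes BMAL1, the bHLH-PAS partner of CLOCK, had 41.2 and 38.7 CPM in uninjured males and 17.4 and 17.1 after CCI. It had 41.2 and 42.2 CPM in uninjured females and 39.2 and 36.7 after CCI. The CCI males stood well below the other 6 libraries. Its log2FC was -1.21 (SE 0.0625, adjusted p = 0.00565 by edgeR's test) in males and -0.14 (SE 0.0859, adjusted p = 0.310) in females. The interaction of 1.08 (SE 0.0982, adjusted p = 0.0402 in edgeR's fit) passed the test, and so did the difference between CCI females and CCI males of 1.14 (SE 0.0734, adjusted p = 0.00412).

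Npas2, a bHLH-PAS protein that can take the place of CLOCK, had 6.88 and 6.13 CPM in naïve and 1.25 and 1.22 in CCI males. In females it had 3.19 and 5.72 CPM without injury and 3.39 and 3.17 after CCI. It was lowest in CCI males, and the female groups overlapped. Its log2FC in males was -2.39 (SE 0.152, adjusted p = 0.00565 by edgeR's test), and between CCI females and CCI males it was 1.41 (SE 0.200, adjusted p = 0.0439), a call that was lost with all 8 libraries in one fit (0.0601). The interaction of 1.95 (SE 0.375, adjusted p = 0.0523 in edgeR's fit) did not pass.

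Per1 and Per3 encode PAS proteins that repress the clock. Per1 had 25.2 and 20.4 CPM in naïve and 18.1 and 17.5 in CCI males, and 12.7 and 17.3 in naïve and 22.1 and 28.2 in CCI females. Like Cyp2s1, Per1 had both CCI males below both naïve males and both CCI females above both naïve females. Its log2FC was 0.74 (SE 0.172, adjusted p = 0.0381 by edgeR's test) in females and -0.35 (SE 0.111, adjusted p = 0.0619) in males, with an interaction of 1.11 (SE 0.251, adjusted p = 0.0666). Per3 averaged 35.1 ± 3.72 CPM in naïve males and 22.7 ± 0.306 in CCI males (SD, n = 2), a log2FC of -0.63 (SE 0.0848, adjusted p = 0.00769 in edgeR's fit).

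Leaving out the first CCI male ended the male calls of Arntl, Npas2 and Per3, at adjusted p of 0.0502 to 0.158 by edgeR's test for these and the other male calls named. In that fit edgeR called 0 of the 16988 genes, against 6494 with an unadjusted p under 0.05, and the log2FC of Arntl, Npas2 and Per3 were -1.21, -2.41 and -0.64. DESeq2 was not run on it. Leaving out the second CCI male, when 1883 genes were called in place of 3663, ended the call of Per3 (0.0542). Leaving out either CCI female, when the calls in females dropped from 967 to 143 and 84, ended the call of Per1 (0.103 and 0.328) and that of Npas2 between the CCI groups (0.251 and 0.158), and without the first that of Arntl there was lost (0.0614). The interaction of Arntl was lost without any one of 6 of the 8 libraries, at adjusted p of 0.0885 to 0.153 in fits where edgeR called 0 to 2 genes in all and 2728 to 3887 had an unadjusted p under 0.05, and passed without the second naïve male or the second naïve female.

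**Figure D5:**
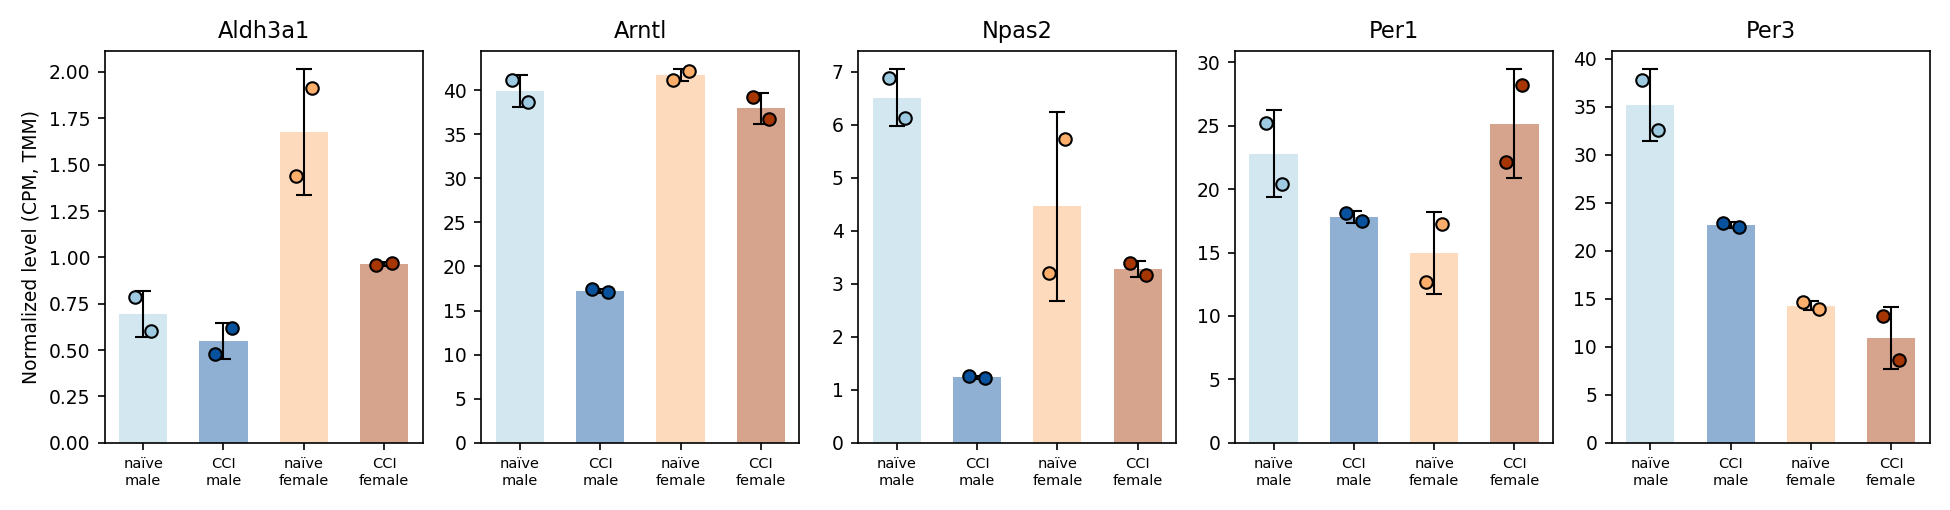
Normalized level (CPM after TMM scaling, axes from 0) of Aldh3a1 and the 4 identified PAS genes in the 8 libraries, with bars for the group mean, error bars for the SD and points for single rats (n = 2 per group). Arntl and Npas2 are lowest in CCI males at 17.3 and 1.23 CPM, and Per1 is highest in CCI females at 25.2 CPM.

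Retinoic acid is among the compounds that CYP2S1 has been described to act on, and of 14 genes of retinoid metabolism 3 had identifiers. All 3 were called lower after CCI in males, where 12.5% of all genes were, and 1 was in females, where 2% were. These genes have symbols because the study's tables, drawn up from the same libraries, listed them. The counts are thus no independent evidence of a direction. Aldh1a1, which makes retinoic acid from retinal, had 55.5 and 58.7 CPM in naïve and 30.4 and 32.0 in CCI males, and 79.3 and 75.5 in naïve and 46.9 and 31.7 in CCI females. Injured rats of both sexes lay below all naïve rats for this gene. The log2FC of Aldh1a1 was -0.87 (SE 0.0746, adjusted p = 0.00565 by edgeR's test) in males and -0.99 (SE 0.164, adjusted p = 0.0134) in females. Its female call was lost without the second CCI female (adjusted p = 0.0881 in edgeR's fit).

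Rarg, a retinoic acid receptor, had 38.3 and 32.8 CPM in naïve and 16.9 and 18.0 in CCI males, and 29.5 and 29.9 in naïve and 25.2 and 23.9 in CCI females. Its log2FC was -1.02 (SE 0.0916, adjusted p = 0.00565 by edgeR's test) in males, and the interaction was 0.75 (SE 0.126, adjusted p = 0.0483). The interaction was lost without any one of the same 6 libraries, at adjusted p of 0.0890 to 0.182. Cyp26b1, a P450 enzyme that breaks down retinoic acid, averaged 24.1 ± 1.24 CPM in naïve males and 16.6 ± 0.295 in CCI males (SD, n = 2), a log2FC of -0.53 (SE 0.0679, adjusted p = 0.00705 by edgeR's test). In females Cyp26b1 had a log2FC of 0.11 (SE 0.137, adjusted p = 0.631). Its male call was lost without the first naïve male, when the log2FC was -0.48.

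Of the P450 genes, 3 had identifiers, namely Cyp2s1, Cyp26b1 and Cyp4f6, a member of the CYP4F subfamily that hydroxylates fatty acids and leukotrienes. Cyp4f6 had 15.7 and 12.8 CPM in naïve and 6.46 and 6.35 in CCI males, and 7.31 and 8.82 in naïve and 5.94 and 5.40 in CCI females. Its log2FC was -1.15 (SE 0.126, adjusted p = 0.00588 by edgeR's test) in males and -0.52 (SE 0.160, adjusted p = 0.0829) in females. Of all genes, 12.5% were called lower in males, and Cyp26b1 and Cyp4f6 have symbols because the study's tables listed them. Without the first CCI male, when edgeR called no gene at all, the male log2FC was -0.83 for Aldh1a1, -0.97 for Rarg, -0.54 for Cyp26b1 and -1.15 for Cyp4f6.

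Of 8 genes that glucocorticoids induce through their own ligand-bound receptor, 4 had identifiers. In males 1 of the 4 was called higher, where 9.05% of all genes were, and in females 1 was, where 3.69% were. The 4 were identified through the study's tables on these libraries, so these counts are no independent evidence either. The female call was Per1. Zbtb16, a zinc finger transcription factor, was the male call, at 3.04 and 2.95 CPM in naïve and 4.49 and 4.27 in CCI males with a log2FC of 0.55 (SE 0.140, adjusted p = 0.0347 by edgeR's test). That call was lost under DESeq2, in the fit of all 8 libraries, without the filter on low counts, with totals in place of TMM and without any one male. Of the lists for prostanoid synthesis, P450 electron donors and NRF2 targets, 0 genes had identifiers.

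Of genes known to respond to nerve injury, 6 of 6 with identifiers in a list of 10 rose in males, where 9.05% of all genes did, and 5 of 6 in females, where 3.69% did, again picked by the study on these libraries. Cell type markers moved with the groups as well, and in whole ganglia fewer cells of a type and less RNA per cell cannot be told apart. The summed CPM of 4 of 6 myelinating Schwann cell markers was 9665 to 11804 in naïve and 2816 to 2941 in CCI males, and 6493 to 8128 in naïve and 3431 to 4548 in CCI females. That of 3 of 5 fibroblast markers was 1783 to 1917, 1111 to 1148, 1753 to 1815 and 1567 to 1584 in the same order, and that of 2 of 6 mast cell markers was 2.03 to 2.84, 0.257 to 0.413, 1.78 to 1.87 and 2.48 to 2.53. The Schwann cell, fibroblast and mast cell sums were all lowest in CCI males, the group in which Cyp2s1 was lowest. So were Cd163 and Fabp7, the single markers of macrophages and satellite glia given below. The neuron and muscle sums were highest in CCI males, and the blood sums overlapped those of other groups. The mast cell sums in CCI males, 0.257 to 0.413 CPM, rest on very few reads. After CCI the log2FC of the 4 Schwann cell markers ran from -2.01 to -1.03 in males. In females it ran from -1.04 to -0.02, so the sum does not stand for each marker. In naïve females the Schwann cell and mast cell sums lay below those of naïve males without overlap, as Cyp2s1 did, and the fibroblast sums overlapped. In CCI females, where Cyp2s1 was highest, the Schwann cell and fibroblast sums lay below those of both naïve groups without overlap. The mast cell sums of CCI females lay above those of naïve females and within the range of naïve males.

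The sum of 4 of 8 neuron markers was 10403 to 12051 CPM in naïve and 17086 to 17358 in CCI males, and 13225 to 13288 in naïve and 13566 to 15713 in CCI females. That of 4 of 6 muscle markers was 30.2 to 45.6 over the naïve rats of both sexes, 67.9 to 74.7 in injured males and 23.8 to 25.1 in injured females, highest in CCI males and lowest in CCI females, the reverse of Cyp2s1 after CCI. Blood markers, 5 of 6, summed to 67.0 and 651 in naïve and 93.7 to 128 in CCI males, and 753 to 1073 in naïve and 87.2 to 119 in CCI females, highest in the group where Ahr was lowest. Cd163, the identified 1 of 9 macrophage markers, had 2.08 to 2.15, 1.54 to 1.90, 3.64 to 5.25 and 5.71 to 5.96 CPM, and Fabp7, 1 of 6 for satellite glia, had 80.2 to 94.0, 46.1 to 48.0, 98.5 to 106 and 60.5 to 63.5. No identified marker was at 0 in any library, and markers of T cells, endothelium and epithelium were not analysed here. The part of any of these in the levels of Ahr and Cyp2s1 was not tested.

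The nearest identified genes on the chromosomes did not allow a local comparison, since 14 to 32 protein-coding genes lay between them and Ahr or Cyp2s1 in the RefSeq annotation. That annotation also places a pseudogene, Cyp2s1-ps1, beside Cyp2s1, and how reads common to both were counted is not known, so the Cyp2s1 counts are uncertain to that extent.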

How the data were processed

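The authors deposited raw read counts per Ensembl gene. The study's methods state that strand-specific libraries of poly(A) RNA were sequenced, and that reads were aligned to rn6 with HISAT2 (version not given in the sources used here), ribosomal reads were removed, and genes were counted with featureCounts. The strand setting of the counting was not given, so reads of overlapping antisense genes may be shared, and the submitters' processing notes name CASAVA 1.8.2. The counts carry no normalization and no batch correction.

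The members, gene lists, tests and rule for named genes were chosen with earlier results of these data known. In R 4.3.3 with edgeR 4.0.16, genes were kept by filterByExpr (minimum count 10, minimum total count 15) and scaled by TMM. Quasi-likelihood fits used the 4 libraries of each comparison, or all 8 for the interaction, with Benjamini-Hochberg adjustment. Genes were called below an adjusted p of 0.05 and, except for the interaction, beyond a log2FC of 0.5 in either direction. The SE is the absolute log2FC divided by the square root of F. P-values set a difference against the spread between rats, which edgeR estimates with information shared across genes. Log2 CPM used a prior count of 2.

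Named are Ahr and Cyp2s1 and called genes of the PAS, retinoid and glucocorticoid lists (up to 4 each) and of the P450 genes. Also named are the only pathway gene with an identifier and, among genes with a symbol, the 5 with the highest r with each member. Called genes of the nerve injury list were counted but not named. Symbols came from the study's tables, which pair 1961 identifiers, and 1960 of these were tested. The rats of every group differed by more than counting noise (chi-square per gene 14.0 to 40.5). The alternatives were DESeq2 1.42.0, its size factors, all 8 libraries in one fit, no filter, a minimum of 10 counts in each library, no threshold on log2FC, the replicate number as a block, leaving out each library and, added after seeing the data, library totals in place of TMM. The fits were tested on simulated data. The qPCR measurements were not analysed here.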

Additional observations from a re-analysis of the deposited data

Results flagged for a closer look

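The interaction of sex and CCI passed the test for Arntl and Rarg. Cyp2s1, for which no test was given, moved opposite ways after CCI in the sexes. For Arntl the female minus male difference of log2FC was 1.08 (SE 0.0982, adjusted p = 0.0402 by edgeR's interaction test), with a fall in males and no call in females. For Rarg it was 0.75 (SE 0.126, adjusted p = 0.0483 by the same edgeR test). Both calls were lost without any one of 6 of the 8 libraries. Arntl and Rarg have symbols because the study's tables, drawn up from these libraries, listed them. These calls are thus no independent evidence of a difference between the sexes. For Cyp2s1 it was 1.86 (SE 0.206), and both CCI males lay below both naïve males while both CCI females lay above both naïve females. Cyp2s1 was chosen with this pattern known, so the difference was not tested.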

How the results depend on the processing

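The log2FC of Cyp2s1 and Ahr kept its sign in every setting run, except for Ahr in males, whose value of -0.01 was positive in 1 of 11 settings. With library totals in place of TMM, Ahr in males was -0.15, when the median of all genes was also shifted to -0.15. Leaving out each library in turn gave 0.90 to 1.18 for Cyp2s1 in females, -0.86 to -0.52 for Cyp2s1 and -0.59 to -0.42 for Ahr between the naïve sexes, and an interaction of 1.68 to 2.03 for Cyp2s1 and 0.51 to 0.68 for Ahr. The count of AHR pathway genes called between the naïve sexes became 1, Aldh3a1, with all 8 libraries in one fit. Of 172 settings run on the 14 calls of named genes, 135 kept the call, 37 lost it and 0 turned its direction. Calls over all genes moved by over 1.5 times between the naïve sexes, from 12 to 996 with DESeq2, 906 with all 8 libraries, 130 without the filter, 1 with at least 10 counts in every library and 6 with the block. Between the CCI groups they went from 180 to 394 with DESeq2, 284 without the filter and 68 with the block. For the interaction they went from 270 to 1618 with DESeq2, 1032 without the filter, 532 with at least 10 counts in every library and 409 with totals. Leaving out 1 library gave 0 to 3722 calls in males, 84 to 1836 in females, 6 to 327 between the naïve sexes, 32 to 656 between the CCI groups and 0 to 563 for the interaction. The number of calls thus fell furthest without the first CCI male in males and without either CCI female in females. Such a fit also has fewer rats, and the part of a single library in the loss was not tested. Without a log2FC threshold the calls rose from 3663 to 6447 in males and from 967 to 1560 in females. The causes of these shifts were not tested, beyond the threshold and the genes tested being part of each setting. The replicate numbers were not used as pairs, since the labels tie them to nothing and the deviations of same-numbered rats correlated at -0.0200 to 0.142 between groups, except for naïve and CCI males, at 0.731. The table's columns for the first naïve and the first CCI male share an added letter that the others lack, and whether the number marks a batch in males was not tested. With the replicate number as a block, Cyp2s1 was at -0.81 (SE 0.109) in males and at an interaction of 1.85, the calls numbered 4478 in males, 1180 in females and 314 for the interaction, and the only call of a named gene lost was that of Npas2 between the CCI groups (adjusted p = 0.109 in edgeR's fit). With 2 rats a group and a lone rat in each fit that leaves 1 out, that rat is assumed to vary like the others. At 28 to 81 counts, Aldh3a1 is limited by counting as well.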
